A study of Mus musculus with 36 samples.

Results

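MBD3 and CHD4 binding was compared in mouse neural progenitor cells (NPCs). The NPCs were differentiated in culture from wild-type R1 embryonic stem cells (ESCs), an established mouse line, and were kept in NPC medium. ChIP-seq, which sequences the DNA precipitated with a protein, gave 1 list of MBD3 peaks and 1 list of CHD4 peaks. All 2304 MBD3 peaks and all 20234 CHD4 peaks entered the comparison, 22538 of the 104813 peaks in the 9 lists analysed out of a series of 36 samples. A CHD4 peak was counted as "with MBD3" when it shared at least 1 bp with an MBD3 peak, and an MBD3 peak as "with CHD4" by the same rule. The other 7 lists came from ESCs. MBD3 and CHD4 had 2 lists each, labelled as wild-type R1 ESCs. SIN3A was profiled in wild-type ESCs in a plain and in a spike-in preparation, and ZFP296 carried a GFP tag. The peak names of ESC CHD4 list 2 mention a Zfp219 BAC despite its wild-type label, and the list was used as labelled. For the ZFP296 list the labels give a BAC in R1 ESCs, whereas the methods of the study describe a tagged cDNA construct in KH2 ESCs, and the sources used here do not settle which was profiled. Peak positions cannot check the NPC label against marker expression, so the label was taken as given.

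MBD3 and CHD4 are subunits of the nucleosome remodelling and deacetylase (NuRD) complex. CHD4 is the ATPase that slides nucleosomes, whereas MBD3 is a scaffold that ties the deacetylase part, with HDAC1, HDAC2 and the MTA proteins, to the remodeller. CHD4 also belongs to other assemblies, among them the ChAHP complex with ADNP, which has no MBD3. NuRD is known for tuning the output of active enhancers and promoters during differentiation. The comparison asks how CHD4 sites with MBD3 differ from the remaining CHD4 sites.

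The deposited value of a peak is a −log10 significance from the peak caller. Shares below carry exact 95% (Clopper-Pearson) intervals and odds ratios carry 95% Woolf intervals, and a difference was called when the interval of the odds ratio left out 1. With 1 library per factor there are no replicates, so these intervals cover counting error over peaks only, neighbouring peaks are not independent, and no p-value is given.

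Sequences at the middle of leading peaks show the kinds of site that the comparison turns on. Each is the central 100 bp on the + strand of mm9, 5′ to 3′, taken where no annotated exon overlapped. Capitals mark the AP-1 heptamer (TGAGTCA or its reverse complement TGACTCA) and the 6-mer CACGCG or its reverse complement CGCGTG, the 6-mer with the highest ratio of shares between CHD4 peaks with and without MBD3. The sequences are, in order, a promoter and an intronic site bound by both subunits, a promoter-proximal and an intergenic site bound by CHD4 without MBD3, and a pair of sites bound by MBD3 without CHD4.
CHD4 with MBD3, promoter of Ctcf, chr8:108160153-108160252: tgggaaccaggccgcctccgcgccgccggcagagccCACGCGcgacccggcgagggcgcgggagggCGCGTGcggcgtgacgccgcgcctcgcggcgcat
CHD4 with MBD3, nearest to Pip5k1a, chr3:94870735-94870834: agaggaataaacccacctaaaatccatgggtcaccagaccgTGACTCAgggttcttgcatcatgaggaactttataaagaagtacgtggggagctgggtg
CHD4 without MBD3, upstream of Igfbp4, chr11:98901770-98901869: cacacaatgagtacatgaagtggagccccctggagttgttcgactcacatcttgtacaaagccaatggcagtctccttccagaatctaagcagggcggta
CHD4 without MBD3, nearest to Nln, chr13:104768915-104769014: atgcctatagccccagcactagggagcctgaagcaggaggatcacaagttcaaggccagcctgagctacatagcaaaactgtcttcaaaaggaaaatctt
MBD3 without CHD4, promoter of Fasn, chr11:120685678-120685777: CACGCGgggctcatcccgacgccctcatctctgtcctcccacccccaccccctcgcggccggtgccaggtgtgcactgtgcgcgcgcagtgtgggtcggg
MBD3 without CHD4, nearest to Chd7, chr4:8574602-8574701: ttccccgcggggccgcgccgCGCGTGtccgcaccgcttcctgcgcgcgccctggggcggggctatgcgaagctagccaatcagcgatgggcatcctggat
The Ctcf promoter sequence held 22 CpG dinucleotides and 2 copies of the 6-mer, whereas the Pip5k1a site held 1 AP-1 heptamer and 2 CpGs. The sites of CHD4 without MBD3 shown here held 2 CpGs or 0. The sequences of MBD3 without CHD4 held 11 and 15 CpGs, and neither held the AP-1 heptamer.

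Most MBD3 peaks lay within CHD4 binding, and most CHD4 peaks lay outside MBD3 binding. Of the 2304 MBD3 peaks, 1957 overlapped a CHD4 peak (84.9%, interval 83.4% to 86.4%) and 347 did not. The 1957 fell on 1975 CHD4 peaks, 9.76% of the CHD4 list (interval 9.36% to 10.2%), which left 18259 CHD4 peaks without MBD3. The 1987 overlapping pairs were closely aligned: the median distance between midpoints was 41 bp, 83.8% of pairs had midpoints within 100 bp, and in 52.3% the MBD3 peak lay wholly inside the CHD4 peak. Only 30 MBD3 peaks touched more than 1 CHD4 peak and 12 CHD4 peaks touched more than 1 MBD3 peak.

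CHD4 peaks with MBD3 carried higher values and were wider than those without. The median value was 12.9 with MBD3 (quartiles 9.21 and 18.1) and 8.65 without (6.65 and 11.8), and the median width was 314 bp against 199 bp. The share of CHD4 peaks with MBD3 climbed over the deciles of CHD4 value, from 3.06% in the lowest (interval 2.36% to 3.91%) through 7.66% in the sixth to 27.8% in the highest (25.8% to 29.8%). Even in the highest decile most CHD4 peaks had no MBD3 peak, and the CHD4 peak with the highest value of all, 104, in an intron nearest to Tm7sf4, was among them. MBD3 peaks showed the same kind of relation, with CHD4 at 78.5% of the weakest 576 by MBD3 value and at 91.8% of the strongest 576. Where both were bound the values were only loosely related (Spearman's rho 0.205 over 1957 MBD3 peaks, a description over sites of the same 2 libraries). Because the value moves with both the overlap and the features below, each odds ratio was also computed within deciles of CHD4 value (Mantel-Haenszel). No odds ratio was computed within classes of peak width.

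**Figure D1:**
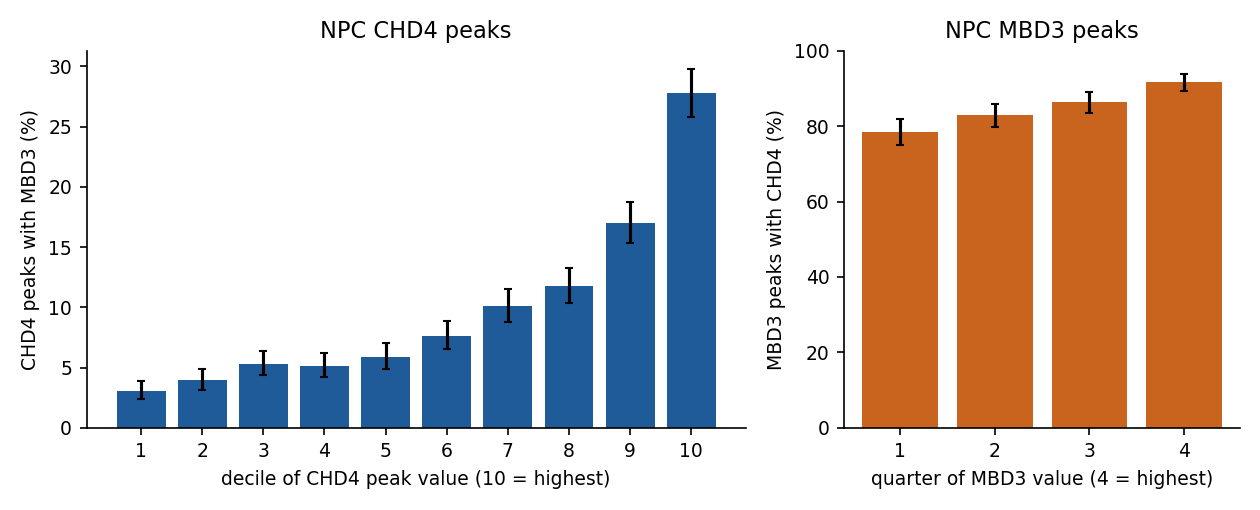
Share of NPC CHD4 peaks with MBD3 in each decile of CHD4 value (left) and share of NPC MBD3 peaks with CHD4 in 4 equal bins of MBD3 value (right); bars start at 0 and error bars are exact 95% intervals for counting error. The CHD4 bars run from 3.06% to 27.8% and the MBD3 bars from 78.5% to 91.8%.

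The MBD3 peaks without CHD4 lay mostly at promoters. Of these 347 peaks, 241 had their midpoint in a TSS window (69.5%, interval 64.3% to 74.3%), against 455 of the 1957 MBD3 peaks with CHD4 (23.2%, 21.4% to 25.2%). A TSS window reached 1 kb before and 5 kb past any transcript start of a protein-coding gene, and such windows cover 8.0% of the genome. The odds ratio, with CHD4 over without, was 0.133 (0.104 to 0.171), and within deciles of MBD3 value it was 0.114 (0.0873 to 0.148). Their median distance to the nearest transcript start was 477 bp, and 33.1% lay between 100 bp and 500 bp from it. Introns held 11.2% and intergenic sequence 18.7% of them, whereas the MBD3 peaks with CHD4 were 30% intronic and 45.6% intergenic. These were somewhat weaker peaks, with a median MBD3 value of 7.55 against 8.79. A CHD4 midpoint lay within 1 kb of 89 of the 347 (25.6%), and without those 89 the share in TSS windows was 71.3% (184 of 258).

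These MBD3 peaks also had another base composition. The central 200 bp was CpG-rich, meaning at least 50% G+C and an observed to expected CpG ratio of at least 0.6, at 64.3% of MBD3 peaks without CHD4 (interval 59.0% to 69.3%) and at 17.4% of those with CHD4 (15.8% to 19.2%). Among MBD3 peaks in TSS windows the shares were 85.9% and 58.5% (odds ratio 0.231, 0.154 to 0.348), and outside them 15.1% and 4.99% (0.296, 0.165 to 0.528). The AP-1 heptamer went the other way, at 18.2% without CHD4 and 52.8% with CHD4 (odds ratio 5.05, 3.79 to 6.73), and so it did within TSS windows alone, at 7.05% against 25.7% (odds ratio 4.56, 2.67 to 7.80). A scrambled heptamer, TCAGTGA, was also called in this direction, at 2.02% and 5.67% (2.92, 1.35 to 6.32). In TSS windows alone the scrambled heptamer was not called (1.28, 0.445 to 3.67). The part of base composition in the AP-1 difference was not tested. GGGCGG, the GC box read by SP and KLF factors, was found at 45.8% and 17.6%.

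**Figure D2:**
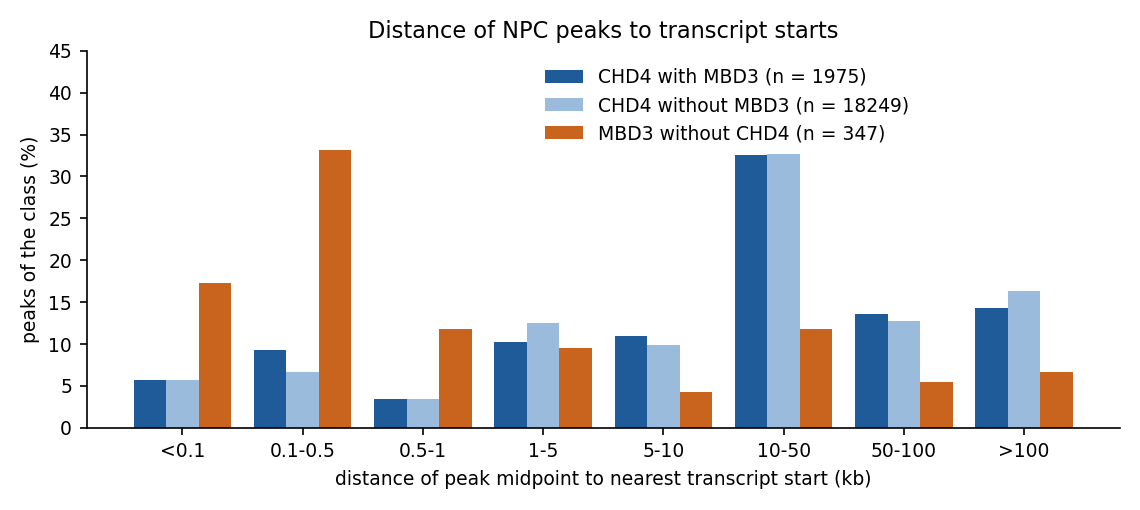
Percentage of peaks of each NPC class in bins of distance (kb) from peak midpoint to the nearest transcript start of a protein-coding gene. The MBD3 peaks without CHD4 (orange) pile up within 1 kb, whereas the CHD4 classes with and without MBD3 (dark and light blue) lie close together at 10 to 50 kb (32.5% and 32.7% of peaks) and apart at 100 to 500 bp (9.27% and 6.71%).

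Genes marked by MBD3 without CHD4 in a TSS window numbered 251, 1.12% of the 22367 protein-coding genes. Of these 251 genes, 150 had no CHD4 peak in their TSS windows, 73 had CHD4 peaks without MBD3 and 28 also had a CHD4 peak with MBD3. Over all 22367 genes the same counts were 18582, 3321 (14.8%) and 464 (2.07%). CHD4 peaks were thus more frequent at the 251 genes than at protein-coding genes in general. The highest value, 26.5, lay 236 bp upstream of a start of Fasn (chr11:120685564-120685892), which encodes fatty acid synthase. The next was intergenic, 42.9 kb upstream of Chd7, a chromodomain remodeller (value 21.0, chr4:8574510-8574794). The next lay 356 bp upstream of a start of Tet2, which encodes an enzyme that oxidises 5-methylcytosine (20.3, chr3:133207593-133207826). All 3 were CpG-rich and held no AP-1 heptamer in the central 200 bp. Zfp217 (19.6), Gng10 (19.3) and Klf15 (18.8), which were named after their values were seen, had the next highest values of such peaks in TSS windows.

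CHD4 peaks with and without MBD3 differed less in position. TSS windows held 465 of 1975 CHD4 peaks with MBD3 (23.5%, interval 21.7% to 25.5%) and 4090 of 18249 without (22.4%, 21.8% to 23.0%), counted on chromosomes 1 to 19 and X, which leaves out 10 peaks on contigs. The odds ratio was 1.07 (0.955 to 1.19). Introns held 29.9% and 30.7%, intergenic sequence 45.5% and 45.8%, and exons 1.11% and 1.00%. The median distance to a transcript start was 17.8 kb with MBD3 and 18.9 kb without, and 183 peaks with MBD3 (9.27%) and 1224 without (6.71%) lay between 100 bp and 500 bp from one. Within deciles of CHD4 value a small excess in TSS windows was called (1.17, 1.05 to 1.31), as it was with windows of 1 kb to each side (1.19, 1.05 to 1.34). The shares differed most among weaker peaks: in the second decile 42.5% of 80 CHD4 peaks with MBD3 (31.5% to 54.1%) and 26.1% of those without (24.1% to 28.1%) were in a TSS window, while in the highest decile the shares were 17.3% (14.2% to 20.6%) and 22.4% (20.3% to 24.6%).

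The centres of CHD4 peaks with MBD3 were more often CpG-rich, both in TSS windows and outside them. The share was 17.5% with MBD3 (interval 15.9% to 19.3%) and 12.2% without (11.7% to 12.6%), an odds ratio of 1.53 (1.36 to 1.74), or 1.79 (1.57 to 2.04) within deciles. In TSS windows the shares were 59.4% and 44.6% (1.81, 1.49 to 2.20), and outside them 4.64% and 2.78% (1.70, 1.31 to 2.21), against 0.985% of all 200 bp windows of the genome. The GC box GGGCGG was likewise more frequent, at 17.2% with MBD3 and 11.9% without (1.53, 1.35 to 1.74), and it was so both in TSS windows and outside them, against 1.96% of genome windows. The median G+C content in TSS windows was 67.0% with MBD3 and 58.5% without.

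AP-1 is the dimer of FOS and JUN proteins, which responds to growth factor signalling, and its heptamer was the most common of the 24 strings searched under CHD4 peaks outside TSS windows. It was found in the central 200 bp of 986 of 1975 CHD4 peaks with MBD3 (49.9%, interval 47.7% to 52.2%) and of 7563 of 18249 without (41.4%, 40.7% to 42.2%), against 3.11% of genome windows. The odds ratio was 1.41 (1.28 to 1.55) and fell to 1.23 (1.12 to 1.35) within deciles. Outside TSS windows the shares were 57.7% and 47.4% (1.51, 1.36 to 1.69), whereas in TSS windows the difference was not called, at 24.5% and 20.7% (1.24, 0.994 to 1.56). Within deciles these odds ratios were 1.32 (1.18 to 1.48) outside and 1.13 (0.899 to 1.43) in TSS windows. The difference did not hold in every decile of CHD4 value: the shares were 33.9% and 33.2% in the lowest, 16.2% and 34.4% in the second, 37% and 43% in the fifth and 58.9% and 44.9% in the highest. Repeated heptamers were also more frequent: outside TSS windows, 23.1% of heptamer-bearing peaks with MBD3 held at least 2 copies (interval 20.3% to 26.0%), against 15.4% without (14.5% to 16.3%). These shares were not computed within deciles. The median CHD4 value of all peaks outside TSS windows was 13.5 with MBD3 and 8.76 without. The extended form ATGAGTCAT (0.187% of genome windows), which contains the heptamer, showed no called difference (4.56% and 4.66%, odds ratio 0.976, 0.781 to 1.22).

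**Figure D3:**
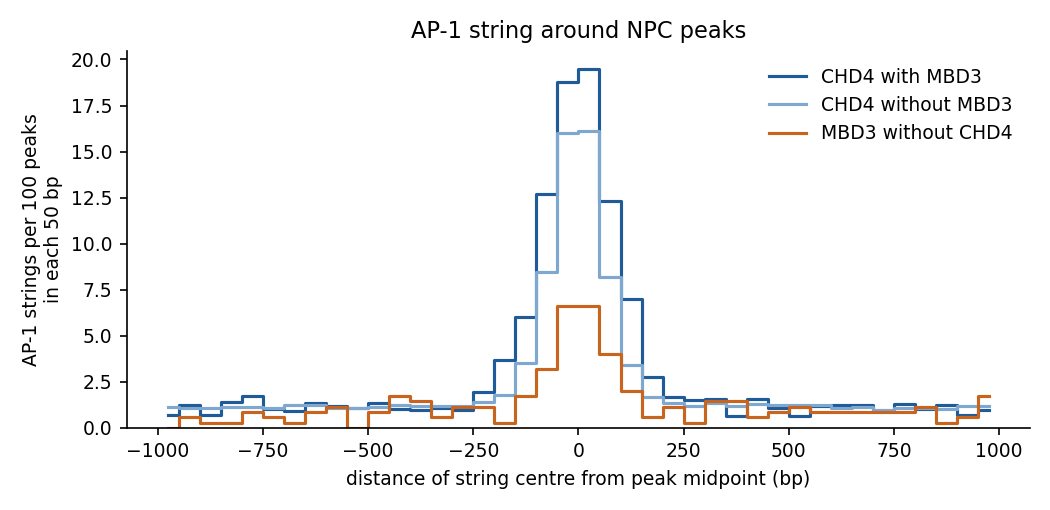
AP-1 heptamers per 100 peaks in 50 bp bins from 1000 bp before to 1000 bp after the peak midpoint, on either strand. CHD4 peaks with MBD3 (dark blue) and without (light blue) share a sharp central maximum, and MBD3 peaks without CHD4 (orange) have a lower one.

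The heptamers were centred under both kinds of CHD4 peak. In the middle 50 bp there were 20.1 per 100 peaks with MBD3 and 17.9 without, against 0.886 and 1.20 per 50 bp at 950 to 1000 bp from the midpoint. MBD3 peaks without CHD4 had 5.76 per 100 peaks in the middle 50 bp. Of the heptamers within 100 bp of the midpoint, 31.9% lay within 25 bp of it with MBD3 (interval 29.3% to 34.6%) and 37.3% without (36.3% to 38.4%); peaks with MBD3 were also wider. Read the other way, MBD3 was found at 11.5% of CHD4 peaks outside TSS windows with the heptamer (10.8% to 12.2%) and at 7.90% of those lacking it (7.32% to 8.50%), and in the highest decile of CHD4 value at 33.3% and 23.9%. Few peaks held both an AP-1 heptamer and a CpG-rich centre, which were found together in 1.32% of CHD4 peaks with MBD3 outside TSS windows and in 3.01% of those inside, against 0.261% and 1.93% without MBD3.

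Of the other strings searched on both strands, 4 were called more frequent with MBD3. The E-box CAGCTG, a core read by many basic helix-loop-helix factors, was found at 22.4% with MBD3 and 16.1% without (odds ratio 1.5, 1.34 to 1.68), and outside TSS windows at 24.5% and 16.8% (1.61, 1.42 to 1.82). In TSS windows no difference was called for CAGCTG, at 15.5% and 13.7% (1.15). GGAATG, read by the TEAD factors of the Hippo pathway, was found at 18.4% and 15.6% (1.22, 1.08 to 1.38). The GGAATG difference was called outside TSS windows (1.27, 1.11 to 1.45) but not inside them (1.07, 0.793 to 1.45). CGTGGGAA, read by the Notch effector RBPJ, was rare, at 17 peaks with MBD3 (0.861%) and 72 without (0.395%), with an odds ratio of 2.19 (1.29 to 3.73). It was called in TSS windows (2.97, 1.32 to 6.64) but not outside them (1.76, 0.863 to 3.6), where 9 peaks with MBD3 held it. CGTGGGAA contains CGTGGG, the reverse complement of CCCACG, a 6-mer found at 15.4% with MBD3 and 6.29% without. Whether the CGTGGGAA excess goes beyond that of the 6-mer was not tested. The fourth is the GC box above. Genome windows of 200 bp held CAGCTG at 7.23%, GGAATG at 10.8% and CGTGGGAA at 0.186%.

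A smaller group was called less frequent with MBD3. TGTGGTT, read by RUNX factors and present in 4.71% of genome windows, was found at 7.39% with MBD3 and 10.5% without (odds ratio 0.678, 0.570 to 0.808), and in both TSS windows (0.504) and elsewhere (0.722). TAATTA, a core of many homeodomain sites (7.21% of windows), was found at 3.39% and 4.92% (0.678, 0.527 to 0.874), and ATGCAAAT, the octamer read by POU factors (1.73% of windows), at 8 and 155 peaks (0.475, 0.233 to 0.968), a call that was lost within deciles of CHD4 value (0.517, 0.253 to 1.06). AGNGGGCGC, part of the CTCF site (0.119% of windows), differed outside TSS windows, at 9 of 1510 peaks with MBD3 (0.596%) and 246 of 14159 without (1.74%, odds ratio 0.339, 0.174 to 0.661). Over all CHD4 peaks the CTCF string gave 0.731 (0.534 to 1.00), which was not called, but within deciles of CHD4 value it was called lower (0.653, 0.474 to 0.898). In TSS windows its shares were 7.31% and 7.16%.

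For the remaining strings no difference was called over all CHD4 peaks without strata, and within deciles of CHD4 value 1 was, for YY1 (0.590, 0.358 to 0.972). For ETS factors (CCGGAAG, in 0.567% of genome windows) the shares were 2.18% with MBD3 and 2.87% without, although in TSS windows alone the odds ratio was 0.624 (0.408 to 0.956). SOX2 (CCATTGT, 3.51% of genome windows), the stem cell and neural progenitor factor, gave 4.20% and 3.70%. FOX (TGTTTAC, 2.98% of windows) gave 2.78% and 3.0%, RFX (GTTGCCA, 1.82%) gave 2.23% and 2.33%, and NFY (AGCCAAT, 2.39%) gave 1.97% and 2.18%. The E-box CACGTG (1.95% of windows), read by MYC and related factors, gave 4.25% and 3.62%. Rarer strings were those of NRF1 (GCATGCGC, 0.217% of windows), at 0.506% and 0.433%, YY1 (AAGATGGC, 1.80%), at 0.861% and 1.34%, REST (TCAGCACC, 0.895%), at 1.22% and 1.35%, and CRE-binding factors (TGACGTCA, 0.107%), at 0.456% and 0.559%. An inverted pair of NFI half-sites was present at 6 peaks in all. The telomere unit TTAGGG (7.57% of windows) gave 7.34% and 6.50%. As controls, the scrambled heptamer TCAGTGA (4.45% of windows) gave 5.82% and 5.36% (1.09, 0.894 to 1.33) and GTAGTAC (1.63%) gave 0.405% and 0.707% (0.571, 0.279 to 1.17). Counted over whole peaks the scrambled TCAGTGA also gave a called excess (1.62, 1.37 to 1.91) and RUNX, homeodomain and octamer calls were lost; peaks with MBD3 were also wider, and the part of width in this was not tested.

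**Figure D4:**
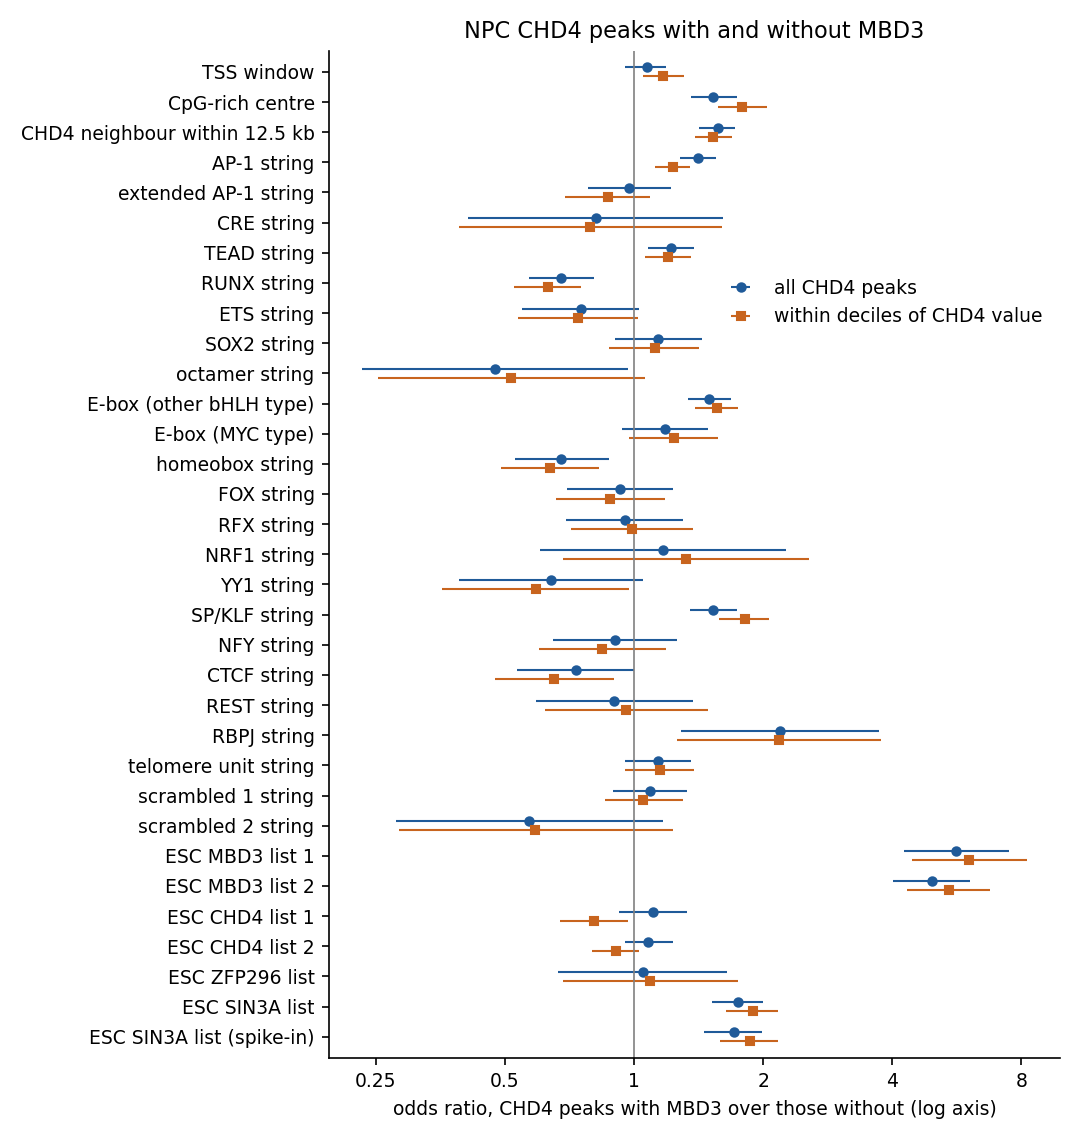
Odds ratios (log axis) of each feature between NPC CHD4 peaks with and without MBD3, for all peaks (blue circles) and within deciles of CHD4 value (orange squares), with 95% intervals for counting error. Peaks of the ESC MBD3 lists lie farthest to the right (5.63 and 4.94), and the RUNX and homeodomain strings lie to the left of 1 (both 0.678).

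All 6-mers were then counted in the same 200 bp, each with its reverse complement. Of 1907 6-mers found in at least 2% of either class, 105 had a share at least 1.5 times higher with MBD3 (5.51%) and 155 at least 1.5 times lower (8.13%). The 2 groups differed in CpG content: 101 of the 105 contained a CpG, against 6 of the 155. The share with a CpG among all 1907 6-mers is not given here. CACGCG led, at 8.81% with MBD3 and 3.16% without, followed by ACGCGC (7.14% and 2.60%) and CGCGCG (7.95% and 3.14%). CCCACG (15.4% and 6.29%) and CCACGC (15.4% and 6.42%) came next, and all 5 kept ratios of 1.98 to 2.49 outside TSS windows. Lowest were ATATAT (0.861% and 3.06%), TATATA (0.911% and 2.72%), TCTTAA (5.01% and 12.9%), GTTCGA (1.01% and 2.58%) and CTTAAC (4.0% and 10.2%). These 6-mers overlap one another, so they are not separate findings.

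CHD4 peaks with MBD3 had CHD4 neighbours more often. Another CHD4 midpoint lay within 12500 bp of 63.4% of them (interval 61.3% to 65.6%) and of 52.6% of those without MBD3 (51.9% to 53.3%), an odds ratio of 1.57 (1.42 to 1.72), which was 1.53 within deciles and 1.53 outside TSS windows. When CHD4 peaks were joined over gaps of up to 12500 bp, 10848 peaks formed 4019 clusters of at least 2, and 9376 stood alone. MBD3 was found at 7.70% of lone peaks (7.17% to 8.26%), 10.7% of peaks in pairs, 11.7% in clusters of 3 to 4 and 13.5% in clusters of 5 or more (12% to 15.1%). The median CHD4 value differed little over these sizes, from 8.92 for lone peaks to 9.4 in clusters of 5 or more. Of the 315 clusters with at least 5 peaks, 166 held MBD3 at 1 or more peaks (52.7%) and 66 at 2 or more (21.0%). Shares of clusters rise with the number of peaks in them alone, which was not allowed for, so the shares of peaks above are the ones to compare. The 30 MBD3 peaks that touched more than 1 CHD4 peak add to these counts by construction.

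The cluster with the most CHD4 peaks was at Phf15 (chr11:51668845-51730385), where 3 of 23 carried MBD3. A cluster over Ahnak (chr19:9117809-9154647), which encodes a giant scaffold protein, had 15 CHD4 peaks and the most MBD3, at 6 of them. Clusters at Obfc1 (chr19:47557559-47614102, 14 peaks, 3 with MBD3), at the calcium-binding protein genes S100a3 and S100a4 (chr3:90378554-90410492, 10 peaks, 5 with MBD3) and at the matrix gene Fbln2 (chr6:91142365-91169054, 8 peaks, 5 with MBD3) followed. No cluster among these had MBD3 at every CHD4 peak.

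Single sites spanned the same range of positions in both classes. With MBD3, the highest CHD4 values in TSS windows included 57.1 at Ctcf, the insulator protein gene, where the MBD3 value was the highest of its list (128), and 43.7 at Adnp (MBD3 7.45), whose product is itself a CHD4 partner. Another was at Dusp7, a phosphatase of ERK (42.7, MBD3 9.51). Outside TSS windows they were 73.6 in an intron nearest to the lipid kinase gene Pip5k1a (chr3:94870511-94871059), 73.5 in an intergenic site nearest to 6030419C18Rik, 67.7 in an intron nearest to the semaphorin receptor gene Plxna4, and 47.7 in an intergenic site nearest to Atp8b1. Without MBD3, the highest values in TSS windows included 94.0 at Exd1, 64.1 at Igfbp4, an insulin-like growth factor binding protein, and 56.2 at Rnf216. Outside them they were 104 nearest to Tm7sf4, 86.1 nearest to Nln, 78.3 in an intron nearest to Plcb1 and 76.9 in a region whose nearest start, of Cited2, was over 1 Mb away.

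At the level of genes, 464 of 22367 protein-coding genes (2.07%) had a CHD4 peak with MBD3 in a TSS window and 3321 (14.8%) had CHD4 peaks there but none with MBD3. When each peak within 100 kb was given to its nearest gene, the numbers were 1348 (6.03%) and 5954 (26.6%). Gene lists were read against these shares, counting annotation entries, of which a few symbols have more than 1. The lists were written with earlier results on these data known, they are small, and their counts are a description.

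Effectors and targets of the Hippo pathway, which controls growth through YAP1 and the TEAD factors, had the highest share of genes with both subunits: 4 of 14 (28.6%) had a CHD4 peak with MBD3 in a TSS window and 6 had CHD4 without MBD3. The 4 were Tead4, a TEAD factor itself (CHD4 value 30.1, MBD3 29.8), the kinase gene Axl (14.4 and 16.5), Ankrd1, a classic YAP1 target (12.6 and 6.19), and Yap1 (11.7 and 13.4). CHD4 without MBD3 was found at Amotl2 (17.6), Tead3 (11.6) and Lats2 (9.56), and Lats2 had an MBD3 peak without CHD4 (11.5) as well. With nearest genes within 100 kb, 7 of the 14 had CHD4 with MBD3 (50%).

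Focal adhesion and matrix genes had CHD4 with MBD3 in a TSS window at 4 of 25 (16.0%) and CHD4 alone at 9. The caveolin gene Cav1 had values of 27.2 for CHD4 and 13.6 for MBD3, and the integrin genes Itgb5 and Itga5 and the syndecan gene Sdc4 had CHD4 values of 9.56, 3.85 and 7.88 with MBD3. Zyx (14.4) and Lamc1 (13.8) were among those with CHD4 alone. In the growth factor and ERK list, 2 of 23 had both, Spry1 (CHD4 22.6, MBD3 9.0) and Spred1 (6.16 and 9.45), which encode inhibitors of the pathway, while 13 had CHD4 alone, among them Spred2 (15.1), Fgfr4 (14.5) and Etv5 (12.7). Within 100 kb the count with both was 9 of 23.

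Notch pathway genes had both subunits at 2 of 16 and CHD4 alone at 7. Hes1, a repressor induced by Notch (CHD4 9.42, MBD3 6.05), and the receptor gene Notch1 (6.16 and 15.2) had both, whereas the receptor genes Notch2 (15.5) and Notch3 (14.7), the feedback inhibitor Nrarp (11.6) and the ligand Dll1 (9.82) had CHD4 alone. In the AP-1 and ATF family, Atf3 was the single gene of 13 with both (9.40 and 6.56), while Jund (11.6), Fosl1 (8.64), Jun (7.03) and Junb (6.88) had CHD4 alone. Wnt ligands and receptors had both at Wnt7b (12 and 18.3), 1 of 31, CHD4 alone at 8, and MBD3 without CHD4 at Wnt4 (7.02) and Fzd2 (6.90).

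Lists of cell identity genes held few bound genes, and shares of bound genes near the 2.07% and 14.8% of all genes are no result about a list. Of 21 neural progenitor genes, Cd44 (CHD4 17.3, MBD3 7.02) and Hmga2 (7.88 and 10.5) had both (9.52%) and Nes, the intermediate filament gene of neural progenitors, had CHD4 alone (11.1); the other 18 had neither. With nearest genes within 100 kb, 3 of the 21 had both and 5 had CHD4 alone. Of 12 neuronal and glial genes 0 had both and Pdgfra had CHD4 alone (14.4), and of 12 pluripotency genes 0 had both and Klf4 had CHD4 alone (15.5). Hoxa2 was the single Hox gene of 40 with both (7.02 and 8.28), and 5 had CHD4 alone, led by Hoxa4 (13.1). At the NuRD subunit genes 0 of 15 had both and 4 had CHD4 alone, Hdac1 (10.6), Cdk2ap1 (9.21), Chd3 (7.84) and Mta3 (5.44).

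In the housekeeping lists no gene had CHD4 with MBD3 in a TSS window. Of 82 genes of cytosolic ribosomal proteins, 10 had CHD4 alone in a TSS window (12.2%, against 14.8% of all genes) and 0 had it with MBD3, and of 82 genes of the respiratory chain and ATP synthase these numbers were 18 (22%) and 0. Within 100 kb each of these lists had 1 gene with MBD3. Ndufa3, a complex I subunit, had the highest value of the latter (43.6). Replication-dependent histone genes had CHD4 at 2 of 67 and MBD3 at 0. None of these 3 lists had an MBD3 peak without CHD4 in a TSS window. At 2.07% of all genes the expected numbers are small, so counts of 0 in single lists say little.

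By number of peaks within 100 kb, Scgb1a1 led the genes with MBD3, with 6 of its 13 CHD4 peaks, and its start is the one nearest to the Ahnak cluster above. Fbln2, Cxxc5, Irf2bp2 and Ccnl1 followed with 5 each and Socs1, an inhibitor of cytokine signalling, Schip1 and S100a3 with 4 each. The genes with the most CHD4 peaks and none with MBD3 were Zfp184 and Runx1, a transcription factor gene, with 13 each, the receptor gene Lpar1 and Cgnl1 with 12 each, and Neurl1a, Gm5528, Tm4sf4 and the collagen gene Col4a1 with 11 each.

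ESC lists gave a readout that the overlap in NPCs did not use. They were overlapped by the same 1 bp rule, which wider peaks meet more easily, and width was not held fixed. CHD4 peaks with MBD3 in NPCs overlapped an ESC MBD3 peak more often than those without: 79 of 1975 (4.0%, interval 3.18% to 4.96%) against 134 of 18249 (0.734%, 0.616% to 0.869%) for ESC list 1, an odds ratio of 5.63 (4.25 to 7.47), and 7.29% against 1.57% for list 2 (4.94, 4.02 to 6.07). In TSS windows the shares for list 2 were 20% and 2.42% (10.1, 7.45 to 13.6), and outside them 3.38% and 1.32% (2.61, 1.91 to 3.58). The ESC CHD4 lists gave smaller differences over all CHD4 peaks, at 6.89% and 6.26% for list 1 (1.11, 0.921 to 1.33) and 15.6% and 14.6% for list 2 (1.08, 0.954 to 1.23). For list 2 the differences went opposite ways by position, with 42.4% and 33.1% in TSS windows (1.49, 1.22 to 1.81) and 7.35% and 9.21% outside them (0.782, 0.639 to 0.957). Within deciles of CHD4 value list 1 turned below 1 (0.807, 0.671 to 0.971). In TSS windows the values within deciles were 1.22 (1.00 to 1.49) for list 2 and 0.943 (0.724 to 1.23) for list 1. Outside them they were 0.636 (0.519 to 0.780) and 0.685 (0.520 to 0.902). Peak names of ESC CHD4 list 2 mention a Zfp219 BAC although its labels give wild-type cells.

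SIN3A, a scaffold of another histone deacetylase complex, was bound in ESCs at 14.3% of NPC CHD4 peaks with MBD3 and 8.74% of those without (odds ratio 1.75, 1.52 to 2.00), and in the list made with spike-in at 10.9% and 6.71% (1.71, 1.46 to 1.99). The difference was called both in TSS windows, at 46.9% and 32.8% in the list without spike-in, and outside them, at 4.30% and 1.78%. ESC ZFP296 peaks were found at 1.06% and 1.01%, with no called difference (1.05, 0.667 to 1.65). MBD3 peaks without CHD4 carried ESC SIN3A most often, at 40.1% (interval 34.9% to 45.4%) against 13.8% of those with CHD4; in TSS windows alone the shares were 55.2% and 45.9% (odds ratio, with over without, 0.690, 0.504 to 0.944).

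The same split was made with the ESC lists themselves, as the background for the NPC values. MBD3 was found at 14.8% of CHD4 peaks for ESC lists 1, 18% for lists 2 and 15.7% for sites in both lists of each factor, against 9.77% in NPCs. The share turned with the pairing, to 6.93% for MBD3 list 1 with CHD4 list 2 and 25.9% for MBD3 list 2 with CHD4 list 1, and list lengths differ. As in NPCs, CHD4 peaks with MBD3 had higher values, with medians of 11.2 and 7.70 in lists 1. CHD4 neighbours were more frequent with MBD3 in ESCs too, with odds ratios of 1.49 (1.33 to 1.67) and 1.39 (1.30 to 1.49), although the pairing moved the value, to 2.51 (2.22 to 2.85) for MBD3 list 1 with CHD4 list 2 and to 1.03 (0.949 to 1.13) for MBD3 list 2 with CHD4 list 1. The AP-1 heptamer was rare in ESCs, at 3.76% with MBD3 and 4.69% without in lists 1 (0.793, 0.608 to 1.03), and odds ratios below 1 were called for lists 2 (0.861, 0.744 to 0.996) and for sites in both lists (0.688, 0.501 to 0.944).

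Position and base composition differed between the NPC and ESC lists, and the ESC lists also differed among themselves. ESC lists 1 and 2 gave TSS odds ratios of 0.755 and 0.528, and CpG-rich odds ratios of 0.872 and 0.359. In ESCs, where NPCs gave a TSS odds ratio of 1.07, CHD4 peaks with MBD3 lay in TSS windows less often, at 22.1% against 27.3% in lists 1 (0.755, 0.669 to 0.853) and 20.1% against 32.3% in lists 2 (0.528, 0.492 to 0.567). CpG-rich centres were less frequent with MBD3 in lists 2, at 8.12% and 19.7% (0.359, 0.324 to 0.398), where NPCs gave an odds ratio of 1.53. Lists 1 gave no called difference, at 0.872 (0.742 to 1.02) over all CHD4 peaks and 1.06 (0.902 to 1.26) within deciles, where NPCs gave 1.79. ESC peaks with MBD3 were instead richer in the octamer ATGCAAAT, at 5.14% and 2.18% in lists 1 (2.43, 1.89 to 3.13), and in the SOX2 string CCATTGT, at 6.87% and 3.24% (2.20, 1.77 to 2.73), strings bound by the pluripotency factors POU5F1 and SOX2. TEAD strings were more frequent with MBD3 in both cell types, with odds ratios of 1.66 and 1.82 in ESCs and 1.22 in NPCs. The ESC and NPC lists come from different libraries, and cell type cannot be told apart from library.

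**Figure D5:**
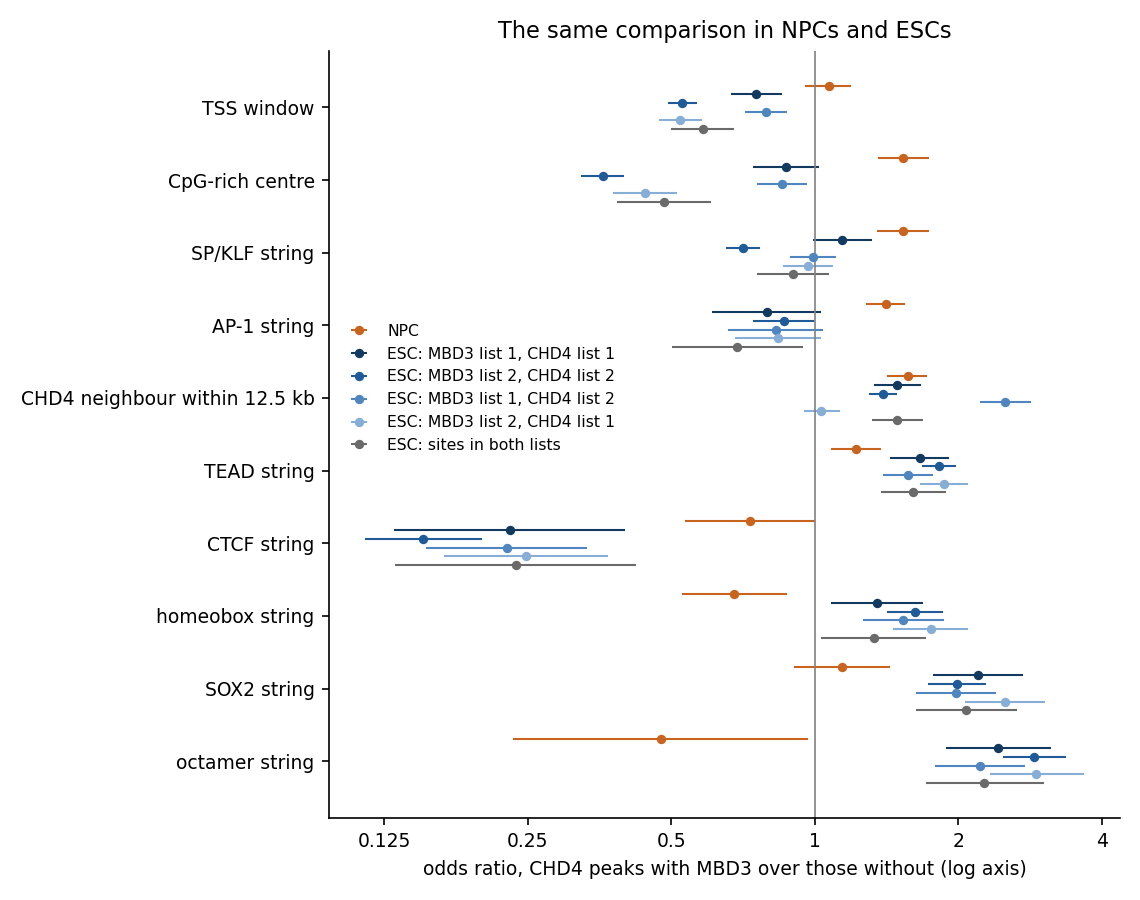
Odds ratios (log axis, 95% intervals for counting error) of 10 features between CHD4 peaks with and without MBD3 in NPCs (orange), in 4 pairings of ESC lists (blue) and at sites found in both ESC lists of each factor (grey). CpG-rich centres, AP-1 and GC box strings lie farther right in NPCs, and octamer and SOX2 strings farther right in ESCs.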

How the data were processed

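ChIP-seq was performed by the authors on formaldehyde-crosslinked cells with antibodies against MBD3 (Bethyl) and CHD4 (Abcam). They mapped reads to mm9 with BWA, kept unique reads of sufficient quality without duplicates, and called peaks in each sample with MACS (2.0 per the labels) against an input of the same cells. The deposited peaks carry a −log10 value, and the sources used here do not say whether of a p-value or a q-value. Names of the peaks in both NPC lists cite a common read number and a threshold of 0.001; reads per peak are unknown, so binding levels were not compared between lists and values served to rank peaks within one.

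Overlaps, positions and odds ratios were computed with Python 3.11.15, numpy 2.4.6, pandas 2.3.3 and scipy 1.17.1 after tests on simulated intervals, and sequence was read from NCBIM37 (mm9) with SAMtools 1.23.1 and pyfaidx 0.9.0.4. Starts of 78248 transcripts of 22367 protein-coding genes came from GENCODE vM1. Each string and its reverse complement was sought in the middle 200 bp of a peak, and 0.5 was added to tables with an empty cell. Groups came from sample titles. No test over samples was possible with 1 library per factor. Named sites were the 4 CHD4 peaks of highest value in each class and the 3 highest MBD3 peaks without CHD4; named genes were up to 4 per list and class by value and the 8 with most peaks; some are not reported here. Members, lists and strings were chosen with earlier results of these data known. Alternatives covered overlap, value minimums, windows, annotation and chromosome 3.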

Additional observations from a re-analysis of the deposited data

Results flagged for a closer look

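Of 14 features compared between the cell types, 9 had NPC and ESC odds ratios whose ratio had a 95% interval without 1 in all 5 ESC pairings, both overall and within deciles of CHD4 value. The intervals cover counting error over peaks, each NPC list is 1 library, and the ESC pairings share lists, so the 5 are not independent; the share of this difference owed to library was not tested. The ratio for sites in both ESC lists of each factor was 1.83 for TSS windows (1.35 to 2.04 over the pairings), 3.18 for CpG-rich centres (1.76 to 4.27), 1.70 for the GC box (1.34 to 2.17) and 2.05 for the AP-1 heptamer (1.64 to 2.05). The CTCF string, with odds ratios of 0.731 in NPCs and 0.151 to 0.248 in ESCs, gave 3.10 (2.95 to 4.84). Ratios below 1 were 0.209 for the octamer (0.162 to 0.214), which rests on 8 NPC peaks with MBD3, 0.548 for the SOX2 string (0.455 to 0.577), 0.510 for the homeodomain string (0.387 to 0.510) and 0.758 for the TEAD string (0.656 to 0.780).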

How the results depend on the processing

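Of 330 values recomputed under an alternative, 290 kept their direction and their side of the call or stayed within 1.5 times or the interval of the reported value. The share of MBD3 peaks with CHD4 was 82.9% with an overlap of at least 0.5 of the shorter peak, 87.2% with midpoints within 500 bp and 69.5% with a value of at least 10 in both lists. That minimum also gave 18.1% for the highest decile of CHD4 value with MBD3, and 210 higher and 291 lower 6-mers, both chosen after seeing the data. The TSS odds ratio of CHD4 peaks was called at 1.17 within deciles and at 1.19 with windows of 1 kb. The TSS odds ratio of MBD3 peaks lay between 0.114 and 0.230 under alternatives chosen after seeing the data. Nearest genes within 100 kb gave 1348 genes in place of 464. In ESCs the CpG-rich odds ratio was 0.359, 0.854, 0.441 and 0.482 for lists 2, MBD3 list 1 with CHD4 list 2, MBD3 list 2 with CHD4 list 1, and sites in both; AP-1 was 0.861 for lists 2 and 0.688 for sites in both, and neighbours gave 1.03 for MBD3 list 2 with CHD4 list 1. Over whole peaks the homeodomain string turned to 1.07, FOX to 1.35, RFX to 1.34 and REST to 1.39, and within deciles ESC CHD4 list 1 turned to 0.807; the cause was not tested. The TEAD call was lost with a value of at least 10 (1.24, 0.993 to 1.54) and the octamer call in 5 alternatives. Depth per peak is unknown, so an MBD3 peak below the threshold cannot be told from no binding. No paired analysis was possible because the NPC lists are single libraries and no result comes from a test over samples.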

Other observations

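Of the genes with both subunits in a TSS window, Ctcf had the highest MBD3 value (128, CHD4 57.1). It was followed by the vesicle coat gene Sec24b (63.6, CHD4 41.2), the cohesin acetyltransferase gene Esco1 (63.4, CHD4 39.8), Bbx (59.6, CHD4 16.2), Lzts2 (52.1, CHD4 38.5), the CDK gene Cdk13 (48.6, CHD4 19.1) and Ezh2, the methyltransferase of Polycomb repressive complex 2 (48.4, CHD4 15.1), which were listed after the values were seen.

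Chromosomes differed in the share of CHD4 peaks with MBD3, from 5.80% on chromosome 14 (26 of 448, interval 3.83% to 8.39%) to 12.2% on chromosome 3 (10.7% to 13.8%) and 14.0% on chromosome 19 (120 of 856, 11.8% to 16.5%). The X chromosome held 143 CHD4 peaks and 0 of them had MBD3, which allows a share of up to 2.55% by the exact interval, and its single MBD3 peak had no CHD4.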
